A study of Rattus norvegicus with 35 samples.

Results

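The genes described here encode the nuclear-encoded subunits of the 5 oxidative phosphorylation complexes, measured in the mammary gland of weanling rats. Members were chosen by name alone. Every array probe whose gene name began with Ndufa, Ndufb, Ndufc, Ndufs, Ndufv, Uqcr, Atp5, Cox4, Cox5, Cox6, Cox7 or Cox8, or was Sdha, Sdhb, Sdhc or Sdhd, was taken. The rule found 71 of the 35561 gene names on the array, on 81 of its 41012 probes. Of these names 68, on 78 probes, are subunits: 35 probes of complex I, 4 of complex II, 7 of complex III, 18 of complex IV and 14 of complex V. The remaining 3 probes, of Ndufaf1 (a complex I assembly factor), Cox4nb (a subunit of an endoplasmic reticulum complex) and Atp5s (a factor coupling to the ATP synthase), carry a family name without being subunits.

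In oxidative phosphorylation, complexes I and II pass electrons from NADH and succinate to ubiquinone, complex III passes them to cytochrome c, and complex IV passes them to oxygen. Complexes I, III and IV pump protons across the inner mitochondrial membrane, and complex V, the ATP synthase, uses the return of these protons to make ATP. Several complex IV subunits, Cox6a, Cox7a and Cox8 among them, exist as one isoform found in most tissues and another found mainly in heart and skeletal muscle, and the heart and muscle form of Cox8 also occurs in brown fat. A young rat mammary gland is a small epithelial tree in a large fat pad, which overlies muscle.

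Messenger RNA came from the abdominal left gland of 35 female Sprague-Dawley offspring from different litters, killed on postnatal day 21, with 5 animals in each of 7 groups and 1 Agilent 1-colour array per animal. Their dams received bisphenol A (BPA), a plastics monomer with oestrogenic activity, by gavage from gestational day 10 to 21 at 25 µg/kg/day (BPA25) or 250 µg/kg/day (BPA250), or belonged to the control group. At each BPA dose, a further group had genistein, an isoflavone of soy, in the dams' chow (250 mg per kg of chow, an intake of 5.5 mg/kg daily), and another had indole-3-carbinol, which cruciferous vegetables release (2000 mg per kg of chow, an intake of 45.0 mg/kg daily). These groups are called BPA25+genistein, BPA250+genistein, BPA25+indole and BPA250+indole below. No group here had a diet compound without BPA, so each diet was compared with the same BPA dose alone, and comparisons that share a BPA group or the control group are not independent of each other.

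Levels are log2 of the processed spot intensity minus the 75th percentile of all probe spots on the same array, and differences are log2 fold changes ± the standard error of a limma fit to all 35 arrays, with 5 arrays per group unless stated. A level of 0 is therefore the signal of the 75th percentile probe. A probe was kept if 4 or all 5 arrays of some group showed it well above background and if no more than 5 arrays missed a value. A difference was called where its p, adjusted by Benjamini and Hochberg's method across the 18991 kept probes, was under 0.05. A level depends on the probe as well as on the transcript, so levels are compared between arrays for 1 probe and never between probes.

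Of the 81 probes, 77 were kept, and 69 were well above background on all 35 arrays. Atp5f1 and Atp5i, subunits of the ATP synthase stalk and membrane part, were above background on all 35 arrays but left out because 14 and 9 arrays carried outlier flags. The Cox6b probe (above background on 11 arrays), which the array files describe as similar to uroplakin Ia, and the probe of Cox6c1 (10 arrays), which RefSeq lists as a pseudogene of Cox6c, were left out as dim. Ndufs4 (an accessory subunit of complex I) was kept although it was above background on 18 of 35 arrays. The spots of Atp5e were saturated on 14 arrays, those of Atp5i on 13, those of Ndufb8 and Cox6a1 on 2 each and that of Ndufb3 on 1. None of the 13 mitochondrially encoded subunit genes was found on the array under the names searched, and Cox7a1, Cox6b1, Cox8c, Ndufa4 and Ndufa4l2 have no member probe under these names.

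The sequences below belong to the probes on which the results turn. The first set is of the complex IV isoforms that varied most with muscle genes. The name Cox8h stands for Cox8b, the heart and muscle form, and has 3 probes: 1 designed on the mRNA and 2 designed on expressed sequence tags (ESTs) that lie on the opposite strand. In the Cox8h lines, capitals mark the 21 bases at which the first EST probe is the reverse complement of the mRNA probe, so these probes read opposite strands of the same place. The 2 EST probes share 40 of their 60 bases and are not independent readings. Coordinates are those of the rn3 build, as the array files give them: the Cox8h mRNA probe at chr1:201207352-201207411 on the minus strand, the EST probes at chr1:201207391-201207450 and chr1:201207411-201208612 on the plus strand (the last span is longer than the probe), and the Cox6a2 probe at chr1:187614813-187614872 on the minus strand.

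Cox8h mRNA probe: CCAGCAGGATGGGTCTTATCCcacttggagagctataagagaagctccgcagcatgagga
Cox8h first EST probe: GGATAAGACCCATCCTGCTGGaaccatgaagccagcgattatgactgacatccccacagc
Cox8h second EST probe: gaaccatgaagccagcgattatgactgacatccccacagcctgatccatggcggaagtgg
Cox6a2 probe: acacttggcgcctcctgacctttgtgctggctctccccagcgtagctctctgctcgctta

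The second set is of Ndufa2, an accessory subunit of complex I, whose 2 probes differed on 2 arrays described further on. They lie at chr18:29470417-29470476 and chr18:29470395-29470454 on the minus strand of rn3, and capitals mark the 38 bases they share.

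Ndufa2 first probe: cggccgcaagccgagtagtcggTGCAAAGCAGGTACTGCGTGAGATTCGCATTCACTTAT
Ndufa2 second probe: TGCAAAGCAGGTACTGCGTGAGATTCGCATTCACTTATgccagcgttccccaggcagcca

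Some arrays stood apart from the rest. Headers name 10 slides, each with up to 4 of these arrays. On slide 3, which held replicate 2 of control, BPA25, BPA250 and BPA25+genistein, 93.5% to 96.5% of probes were well above background, against 65.5% to 72.6% on slides 4 and 5 and 32.5% to 50.6% on the other slides. The 77 member probes had a median level of 3.05 to 3.45 there against 4.53 to 5.70 on the other 31 arrays, and the 95th percentile of all probes was lower there as well, at 2.96 to 3.35 against 4.15 to 5.42. BPA250+genistein and both indole groups have no array on slide 3, so the members' counts and medians in comparisons of these groups are also given without it. Replicate 4 of BPA25+genistein and of BPA250+genistein also stood apart: both lay over 1 log2 unit below all 33 other arrays on 441 of 18122 probes (2.43%), where no other pair among 595 did so on more than 7. Markers of white fat were above background throughout, with list means of 3.65 to 6.75, and of the luminal epithelial markers Cldn3 was above background on 35 arrays, Prlr on 23, Cldn7 on 21 and Elf5 on 9, with no probe for Krt8, Krt18, Krt19 and Epcam under these names. In a whole gland, fewer cells of a type and less RNA per cell cannot be told apart.

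**Figure D1:**
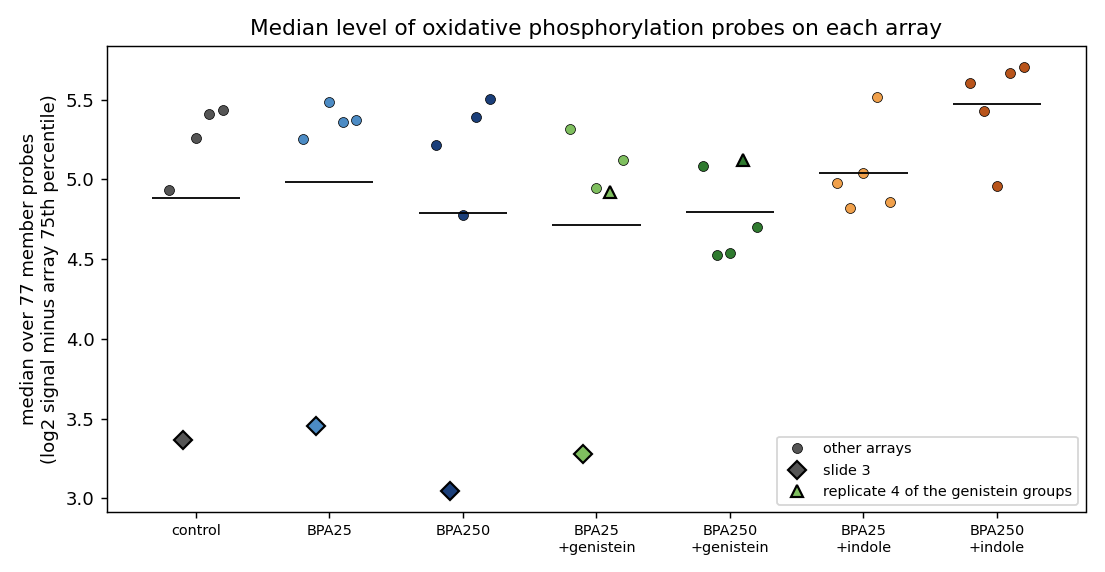
Median level of the 77 member probes on each of the 35 arrays (log2 signal minus the array's 75th percentile), by group, with the group mean as a line. The 4 arrays of slide 3 (diamonds) sit at 3.05 to 3.45, below the other 31 arrays at 4.53 to 5.70, and replicate 4 of each genistein group is drawn as a triangle.

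No member was called in any of the 6 single comparisons or in the F test over the 7 groups (limma). Over all probes, 0 of 18991 were called for BPA25 against control, BPA250 against control, BPA250+genistein against BPA250, BPA250+indole against BPA250 and the F test (0%). There was 1 call for BPA25+genistein against BPA25 (0.00527%) and 2 for BPA25+indole against BPA25 (0.0105%). At an unadjusted p under 0.05, the counts of member probes were 0 of 77 for BPA25 against control, beside 1.97% of all probes, and 3 for BPA250 against control, beside 0.964%. In the diet comparisons 1 member probe passed that level each time, beside 4.80% of all probes for BPA25+genistein, 4.17% for BPA250+genistein, 4.31% for BPA25+indole and 4.17% for BPA250+indole, and 2 did in the F test, beside 4.05%. Of the members, 1 probe had groups that do not overlap, the mRNA probe of Cox8h in BPA250 against control, where 57 of all 18991 probes (0.300%) had none. In the 5 other comparisons no member was free of overlap, against 0.242% of all probes for BPA25 against control, 0.290% for BPA25+genistein, 0.437% for BPA250+genistein, 0.716% for BPA25+indole and 1.10% for BPA250+indole.

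On all arrays, the largest shift of the members as a group was in BPA250+indole against BPA250. Of 77 member probes, 73 were higher with indole-3-carbinol, with a median log2 fold change of 0.68, beside 68.9% of all probes higher and a median of 0.23. All 35 probes of complex I were higher (median 0.69), as were the 4 of complex II (0.75), the 7 of complex III (0.73) and the 12 of complex V (0.56), and 12 of 16 of complex IV (0.62). The 4 that were lower were the probe of the muscle isoform Cox6a2 and the 3 Cox8h probes. Of the Cox8h probes only 1 reads the mRNA of the muscle isoform, and the 2 EST probes lie on the opposite strand. The second EST probe was above background on 2 of 5 arrays in each group and turned to 0.33 without slide 3. No difference of a member passed the test, and the smallest adjusted p among the members was 0.776.

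Much of the size of this shift rested on the slide 3 array of BPA250. The median member level of BPA250 was 5.22, 3.05, 4.78, 5.39 and 5.50 on its 5 arrays, the second being on slide 3. In BPA250+indole it was 5.60, 5.43, 4.96, 5.67 and 5.70. The 2 groups overlapped with and without the slide 3 array. Without slide 3, 71 of 77 members were higher with a median of 0.27 (all probes 0.03), by complex 34 of 35 of complex I (0.29), 4 of 4 of complex II (0.32), 7 of 7 of complex III (0.30), 12 of 16 of complex IV (0.24) and 11 of 12 of complex V (0.18). With slide as a fixed block the median was 0.23, and on the single slide that held both groups, slide 1 with 1 array of each, 66 of 76 members were higher with a median difference of 0.30.

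Ndufa5, an accessory subunit in the peripheral arm of complex I, had the smallest p in this comparison. Its level was 5.07, 6.34 and 7.67 on the 3 BPA250 arrays with a value, the first of them on slide 3, and 7.77, 7.88, 6.87, 7.61 and 8.37 in BPA250+indole. The groups overlapped, since 7.67 lies above 2 of the indole values. The difference was 1.34 ± 0.60 (unadjusted p = 0.0339, limma adjusted p = 0.776), and between 0.70 (without the slide 3 array) and 2.00 when 1 array was left out at a time. It was 0.25 in the authors' value table. Uqcrb, a ubiquinone-binding subunit of complex III with 3 probes, was next, with differences of 0.94 ± 0.48, 0.79 ± 0.54 and 0.71 ± 0.47 that agree within their errors. Without slide 3 these were 0.52, 0.36 and 0.30.

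The 4 genes of complex II, which also acts in the citric acid cycle, were each higher in BPA250+indole than in BPA250 by a similar amount. Sdha, the flavoprotein, was at 6.27, 4.01, 5.61, 6.66 and 6.73 in BPA250 and at 6.30, 6.77, 5.89, 6.66 and 6.91 in BPA250+indole, a difference of 0.64 ± 0.51. Apart from the slide 3 array at 4.01, these values share 1 range. Sdhb, the iron-sulphur protein, differed by 0.78 ± 0.42, and the membrane anchors Sdhc and Sdhd by 0.89 ± 0.57 and 0.72 ± 0.55. Without slide 3 the 4 genes lay at 0.18 to 0.41. In the 5 other comparisons the 4 genes lay between -0.26 and 0.45 on all arrays, within 1 standard error of 0, but at -0.75 to -0.18 in BPA250+genistein without slide 3.

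Other genes of mitochondrial energy supply were also higher in this comparison. On a list of further pathway genes, 60 of 65 kept probes were higher in BPA250+indole than in BPA250, with a median of 0.62 and no call, beside the 68.9% and 0.23 of all probes. Without slide 3, 52 of 65 were higher with a median of 0.23 (all probes 54.8% and 0.03). All 20 probes of the citric acid cycle and pyruvate dehydrogenase (median 0.67) and all 15 of mitochondrial carriers and channels (median 0.70) were among them, and 18 of 20 (0.29) and 15 of 15 (0.43) were higher without slide 3. The uncoupling proteins had the smallest p values: Ucp3 differed by 0.90 ± 0.25 (unadjusted p = 0.0010) and Ucp1, which makes heat in brown fat, by 2.89 ± 0.84 (unadjusted p = 0.0016), both with a limma adjusted p of 0.776. Without slide 3 these values were 0.91 and 2.63. Cycs, cytochrome c, differed by 1.10 ± 0.48 on the probe of smallest p, and by 0.62 ± 0.28 without slide 3. Of 6 listed brown adipocyte genes, 4 were measured, and their mean level was 0.02 to 1.84 in BPA250 and 1.38 to 2.44 in BPA250+indole, with BPA250 at 0.56 to 1.84 without its slide 3 array. The group means were 0.88 and 1.90. Since Ucp1, which differed by 2.89, is 1 of the 4 genes averaged, most of this rise is that of Ucp1. Ucp1 stands on both lists and was above background on 27 of 35 arrays, Cidea and Cpt1b on 35 and Dio2 on 34, while Elovl3 was above background on 4 and Prdm16 has no probe under this name. Other marker lists differed between these groups as well. Of 4 listed erythroid genes, Hbb and Alas2 were measured and above background on all 35 arrays, and their mean level was 1.93 to 4.50 in BPA250 (3.39 to 4.50 without slide 3) and 4.07 to 7.34 in BPA250+indole. The T cell list, with 4 of 6 genes measured, ran from -1.78 to 0.25 in BPA250 and from -1.10 to 1.21 in BPA250+indole (group means -0.47 and 0.33). The skeletal muscle list ran from -2.499 to 1.35 and from -3.09 to 0.64 (0.13 and -1.66). The luminal epithelial list ran from -1.26 to 0.33 and from -1.61 to -0.33 (-0.60 and -1.11). On each of these lists the arrays of the 2 groups overlapped. The part of brown fat, of blood or of these other cells in the difference of the subunits was not tested.

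**Figure D2:**
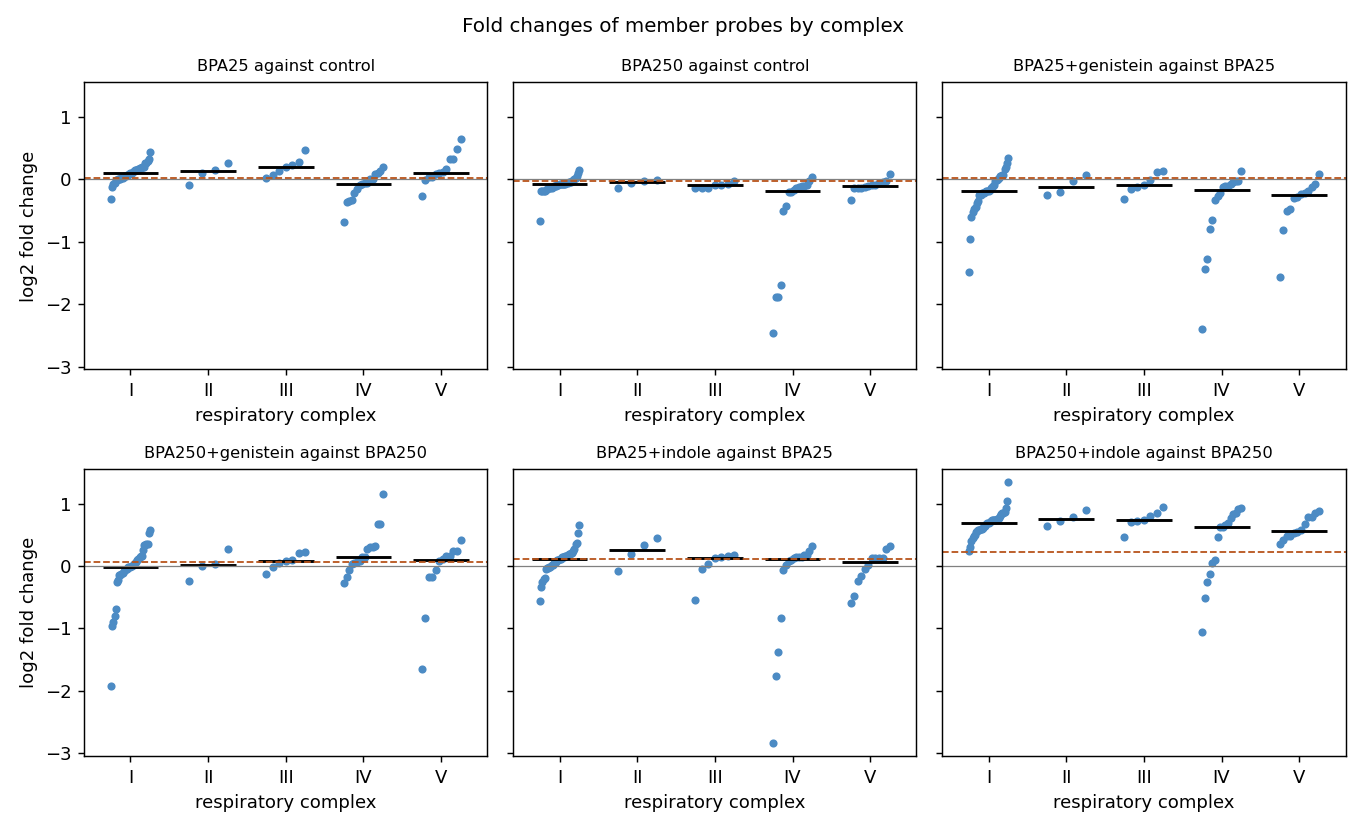
Log2 fold change of every kept member probe in the 6 single comparisons, by complex, with the median of the complex as a black bar and the median of all 18991 probes as an orange dashed line. In BPA250+indole against BPA250 the complex medians lie at 0.56 to 0.75 against 0.23 for all probes, and the Cox6a2 and Cox8h probes fall below the others of complex IV in several panels.

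At the lower BPA dose, indole-3-carbinol went with no such shift. In BPA25+indole against BPA25, 54 of 77 members were higher with a median of 0.12, equal to the median of all probes (0.12, with 64.0% of them higher). The direction turned with the scaling and the slides: the median was -0.08 in the authors' value table, -0.09 after quantile normalisation and -0.24 without slide 3, where 4 of 77 members were higher and all probes had a median of -0.03. The indole effect at BPA250 minus that at BPA25 was above 0 for 76 of 77 members, with a median of 0.58, but no member passed the test of this difference (smallest limma adjusted p 1.00).

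With genistein added to BPA250 the members lay near 0 on all arrays, with 46 of 77 higher and a median of 0.06, the same as for all probes (0.06, 57.5% higher). This value too depended on slide 3, which holds a BPA250 array and none of BPA250+genistein. Without it, 7 of 77 members were higher and the median was -0.36 (all probes -0.12), with 1 of 35 higher in complex I (-0.40), 0 of 4 in complex II (-0.40), 0 of 7 in complex III (-0.34), 5 of 16 in complex IV (-0.25) and 1 of 12 in complex V (-0.34). The median was also below 0 after quantile normalisation (-0.11), in the authors' value table (-0.11) and with slide as a fixed block (-0.26). Slides 5 and 10 each held 1 array of both groups, and their median differences were -0.0095 and -0.71.

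Ndufa7, an accessory complex I subunit, had the smallest p of this comparison. Its level was 0.88, -0.01, -0.04, 0.63 and 0.62 in BPA250 and 0.21, 0.30, -0.65, -1.86 and -0.45 in BPA250+genistein. The groups overlapped, and the lowest value, -1.86, was on the replicate 4 array that stood apart. The difference was -0.90 ± 0.31 (unadjusted p = 0.0062, limma adjusted p = 1.00), and -0.56 ± 0.27 without the 2 arrays that stood apart. One probe of Ndufa9, another accessory subunit, differed by -0.69 ± 0.37, and its other probe by 0.0032 ± 0.44.

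With both slide 3 and the 2 arrays that stood apart left out, a choice made after seeing the data, 1 member was called in this comparison. This was 1 of the 2 probes of Ndufs8, an iron-sulphur subunit of the electron path of complex I, at -0.89 ± 0.22 (limma adjusted p = 0.0476), and it was also called by the F test (adjusted p = 0.0374). On all arrays its level was 2.40, 0.69, 2.27, 2.91 and 2.87 in BPA250 and 2.21, 1.45, 1.496, 3.88 and 1.72 in BPA250+genistein. The lowest BPA250 value, 0.69, was on slide 3, and the highest genistein value, 3.88, was on replicate 4. Left in, these 2 arrays gave a difference of -0.08 ± 0.44. The second Ndufs8 probe stood at -0.81 ± 0.23 (adjusted p = 0.0705) and Ndufa11, a complex I membrane subunit, at -0.91 ± 0.25 (adjusted p = 0.0610) in the same reduced fit, in which the members' median was -0.49 and that of all probes -0.17, with 7 of 77 members higher. The number of all kept probes called in this fit is not given here, so the 1 call has no general rate beside it.

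Genistein added to BPA25 went with lower values for 60 of 77 members on all arrays, 17 being higher, with a median of -0.17 (all probes 0.03, 53.0% higher). This direction turned when slide (median 0.04) or scan day (0.13) was a fixed block and to 0.27 without the slide 3 array of BPA25+genistein alone. It was -0.53 without that of BPA25 alone, -0.10 without slide 3 and -0.27 without the 2 arrays that stood apart, where 4 of 77 were higher. The leading members were the Cox8h mRNA probe (-2.40 ± 1.04, unadjusted p = 0.0279, and -3.90 without slide 3 with a limma adjusted p of 0.148) on the lower side, and Ndufa6 (0.26 ± 0.46) and 1 probe of Ndufc2 (0.34 ± 0.69), accessory subunits of complex I, on the higher side. The Ndufc2 value was -0.06 without the 2 arrays that stood apart. The genistein effect at BPA250 minus that at BPA25 was above 0 for 61 of 77 members with a median of 0.19 and no call.

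**Figure D3:**
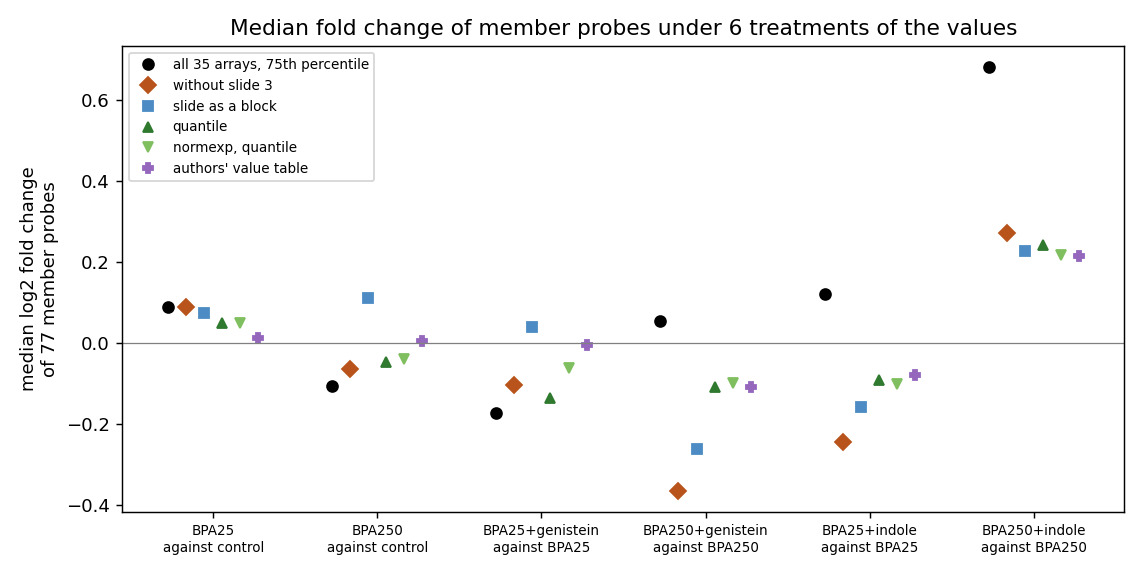
Median log2 fold change of the member probes in each of the 6 single comparisons, on all arrays and under other settings of normalisation, slide and left-out arrays. BPA250+indole against BPA250 stays above 0 under the settings drawn, at 0.22 to 0.68, BPA25 against control stays at 0.01 to 0.09, and the other 4 comparisons have settings on both sides of 0.

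BPA alone was followed by small differences in the members. In BPA25 against control, 55 of 77 were higher with a median of 0.09 (all probes 0.02, 53.1% higher), and the median stayed between 0.01 and 0.10 under the scalings and blocks tried. It rested on both slide 3 arrays being present or both absent: it was 0.44 without that of BPA25 alone and -0.26 without that of control alone. All 7 probes of complex III were higher (median 0.19), as were 27 of 35 of complex I and 10 of 12 of complex V, against 6 of 16 of complex IV. The catalytic beta subunit of the ATP synthase, Atp5b, differed by 0.65 ± 0.49 (unadjusted p = 0.195) and Ndufv1, the NADH-binding subunit of complex I, by 0.44 ± 0.36. On the lower side were Cox7a2 (-0.36 ± 0.46) and Cox6a1 (-0.35 ± 0.49), the forms of these complex IV subunits found in most tissues. Both turned to 0.04 without slide 3, on which the control array has no value for either probe.

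In BPA250 against control, 7 of 77 members were higher with a median of -0.10 (all probes -0.03, 42.2% higher). The direction turned to 0.11 with slide as a fixed block, to 0.14 with scan day as one and to 0.0067 in the authors' value table, and it was 0.30 without the slide 3 array of BPA250 alone and -0.47 without that of control alone. Both groups had an array on slides 1, 3 and 7, where the median differences were 0.32, -0.29 and 0.13. The largest positive values, of Ndufs4 (0.14 ± 0.38) and Ndufa7 (0.11 ± 0.31), lay within their errors of 0. Directly between the doses, 3 of 77 members were higher in BPA250 than in BPA25 with a median of -0.19, and none was called.

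In BPA250 against control, 3 member probes had an unadjusted p under 0.05. They were the probes of the complex IV muscle isoforms, Cox6a2 and the Cox8h mRNA probe, and the first Cox8h EST probe, which lies on the opposite strand. For the Cox8h mRNA probe, the control arrays read 3.95, 3.37, 4.49, 3.47 and 5.91. The BPA250 arrays read 2.97, 2.05, 1.89, 0.27 and 1.66, all below the lowest control. The difference was -2.47 ± 1.04 (unadjusted p = 0.0240, limma adjusted p = 1.00).

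In BPA25 the same probe read 4.62, 0.95, 3.33, 4.92 and 3.93, with the low value on slide 3. BPA25+genistein read 0.49, 4.56, -0.64, 1.18 and 0.17, with the high value on slide 3, and BPA25+indole read -0.39, -0.04, -0.93, 6.20 and -1.26. Both groups overlapped with BPA25: BPA25+genistein has arrays at 1.18 and 4.56 within its range, and BPA25+indole has the array at 6.20 above it. The difference was -2.84 ± 1.04 for BPA25+indole against BPA25 (unadjusted p = 0.0103, limma adjusted p = 0.984), and without replicate 4 of BPA25+indole, the array at 6.20, it was -4.21 and was called (adjusted p = 0.0372). The number of all kept probes called without that array is not given here, so this call too has no general rate beside it. Without slide 3 the difference was -3.49 ± 1.02 (adjusted p = 0.227). At the higher dose BPA250+genistein read 2.04, 2.60, 1.16, -0.06 and 1.75, within the BPA250 range but for the lowest array. BPA250+indole read 2.98, 1.25, -0.29, -1.60 and 1.23, overlapping with BPA250, with a difference of -1.06 ± 1.04.

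The EST probes of Cox8h followed this only in part. They differed by -1.88 ± 0.84 and -1.89 ± 1.06 in BPA250 against control. They were above background on 21 and 20 of the 35 arrays. Both passed the filter only through control and BPA25, where every array was above background. In BPA250 each was above background on 2 of 5 arrays, so these differences are no separate support for that of the mRNA probe. In BPA250+genistein against BPA250 the EST probes stood at 1.15 ± 0.84 and 0.67 ± 1.06 where the mRNA probe stood at -0.27 ± 1.04, a gap of 1.42 between the extremes. Cox8h was the only member gene whose probes differed by over 1 in any single comparison, which happened in BPA25+genistein, BPA250+genistein and BPA25+indole.

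Cox6a2, the heart and muscle form of subunit 6a, showed a like pattern over the groups. Control read 1.76, 1.43, 2.67, 1.48 and 3.91 and BPA250 read 1.89, 0.69, 1.46, -0.99 and -0.25. The groups overlapped through the BPA250 arrays at 1.89 and 1.46, and the difference was -1.69 ± 0.69 (unadjusted p = 0.0192, limma adjusted p = 1.00). BPA25 read 2.27, -0.07, 1.99, 2.56 and 2.87, and BPA25+indole read 0.30, 0.49, -0.76, 4.42 and 1.00, where the array at 4.42 is again replicate 4.

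These isoforms varied with skeletal muscle genes from array to array. A list of 24 muscle genes such as Ckm, Acta1 and Tnnt3 had 17 measured, and none of these was at background throughout. Their mean level was 1.54 to 4.15 in control, 0.61 to 3.55 in BPA25, -2.499 to 1.35 in BPA250, -2.73 to 2.59 in BPA25+genistein, -2.74 to 1.08 in BPA250+genistein, -2.90 to 3.68 in BPA25+indole and -3.09 to 0.64 in BPA250+indole. So the muscle mean of every BPA250 array lay below that of every control array, as for Cox8h. Of the genes averaged, Tnnt3 and Mb were above background on 35 arrays, Actn3 on 34 and Tnni2 on 33. The dimmest were Neb, on 15 arrays, Tnni1 on 16, Myoz2 on 17 and Pygm on 20. Low muscle means therefore include readings that were not above background. The BPA25+indole array with the high Cox8h value had the highest muscle mean of its group.

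Over the 35 arrays the Cox8h mRNA probe correlated with the muscle mean at Pearson r = 0.91 and Spearman rho = 0.89, and Cox6a2 at r = 0.82 and rho = 0.82. The EST probes stood at r = 0.71 and 0.69 (rho 0.72 and 0.69). All 4 had a permutation p of 1e-05 for r, the smallest that 100000 permutations can give, and 0.00132 after Benjamini-Hochberg adjustment over 18991 probes. Without the 2 arrays farthest from the median muscle level (control replicate 5 and BPA25+indole replicate 4), r was 0.89 and 0.79 for the Cox8h mRNA probe and Cox6a2. Within slides it was 0.88 and 0.81, and within groups 0.88 and 0.82. Of all probes, 141 (0.742%) had r above 0.7, and 3 members did, the first EST probe among them. The EST probes lay close to that value, with r from 0.66 to 0.78 for the first and 0.64 to 0.75 for the second under the alternatives. They passed the filter only through control and BPA25, whose muscle means averaged 2.51 and 2.76 against 0.13 or less in the other groups. Elsewhere many of their readings were not above background, and they share 40 bases. Their correlations are therefore no separate support for that of the mRNA probe.

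The other 73 member probes had weaker correlations with the muscle mean, none with r above 0.7 under any alternative. On all arrays their r ran from -0.30 to 0.13 with 0 passing at an adjusted p under 0.05 (smallest 0.417), 0 also having an unadjusted permutation p under 0.05. Without slide 3 it ran from -0.20 to 0.42, with 1 at an unadjusted p under 0.05, and within slides from -0.49 to 0.25, with 15. Without the 2 arrays farthest from the median 9 had such a p, and under the other normalisations 4 (normexp), 7 (quantile) and 5 (authors' table) did, with r up to 0.59. The muscle list differed between groups alongside Cox6a2 and Cox8h, and how much of their difference between groups goes with it was not tested.

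**Figure D4:**
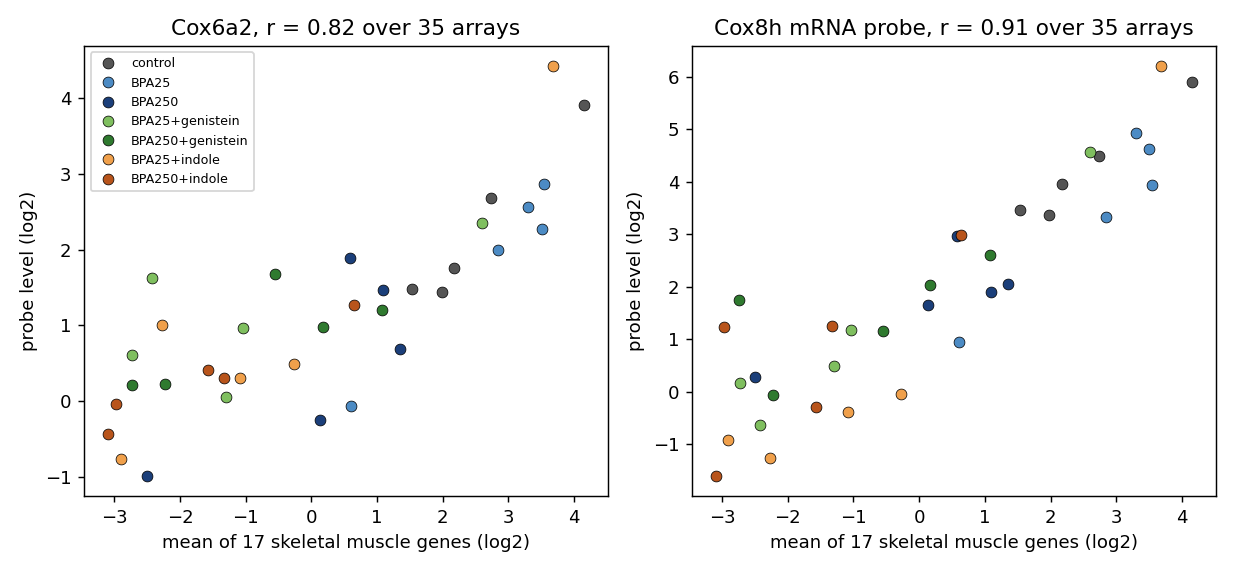
Level of Cox6a2 (left) and of the Cox8h mRNA probe (right) against the mean level of 17 skeletal muscle genes, 1 point per array, coloured by group, both axes log2. Points rise together over the 35 arrays (r = 0.82 and 0.91), with control and most BPA25 arrays at the upper right and most diet arrays at the lower left.

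The forms found in most tissues had smaller spreads. Over the 35 arrays the SD was 0.73 for Cox6a1 and 0.82 for Cox8a, against 1.24 for Cox6a2 and 2.08 for the Cox8h mRNA probe. Cox4i1, the common form of subunit 4, ran from -0.27 ± 0.43 to 0.62 ± 0.43 over the 6 comparisons, and Cox4i2, its lung-enriched and oxygen-responsive form, from -0.12 ± 0.30 to 0.32 ± 0.30. Cox4i2 had the smallest SD of complex IV, at 0.43. Cox7a2l, a related factor in the assembly of supercomplexes, lay between -0.17 ± 0.49 and 0.47 ± 0.49, and Cox6b2, the testis form, between -0.65 ± 0.38 and 0.67 ± 0.40. The Atp5g genes, which encode the same c subunit of the ATP synthase ring from separate loci, had SDs of 0.63 for Atp5g1, 0.67 and 0.65 for the 2 probes of Atp5g2 and 0.83 for Atp5g3.

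Outside complex IV the most variable members were Ndufb3, an accessory subunit of complex I (SD 2.13), and Atp5j, coupling factor 6 in the peripheral stalk of the ATP synthase (SD 1.80). Their lowest values were on the 2 arrays that stood apart. Ndufb3 read -0.17 on replicate 4 of BPA25+genistein and -1.91 on replicate 4 of BPA250+genistein, and 5.18 to 8.73 on the other 33 arrays. Atp5j read -1.56 and -1.85 there against 3.68 to 6.21.

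Ndufa2 showed that a low reading on these arrays could belong to 1 probe of a gene. Its first probe read -0.30 and 0.68 on the same 2 arrays, against 1.72 to 4.65 elsewhere. Its second probe, which shares 38 of 60 bases with the first as printed above, read 4.54 and 4.39, inside the range of the other arrays (2.27 to 4.92). In all, 3 of the 63 member probes with a value on every array (4.76%) lay over 1 log2 unit below all others on both arrays, beside 2.43% of all probes. Atp5c1, the gamma subunit, read 2.07 and 0.66 against 2.19 to 5.16, below the others by less. A few members, Ndufs7, Cox5b and Atp5d among them, were instead higher on both arrays than on all others. The genistein differences of Ndufb3 were -1.49 ± 1.23 at BPA25 and -1.93 ± 1.23 at BPA250, and -0.04 ± 0.56 and -0.17 ± 0.56 without these arrays.

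**Figure D5:**
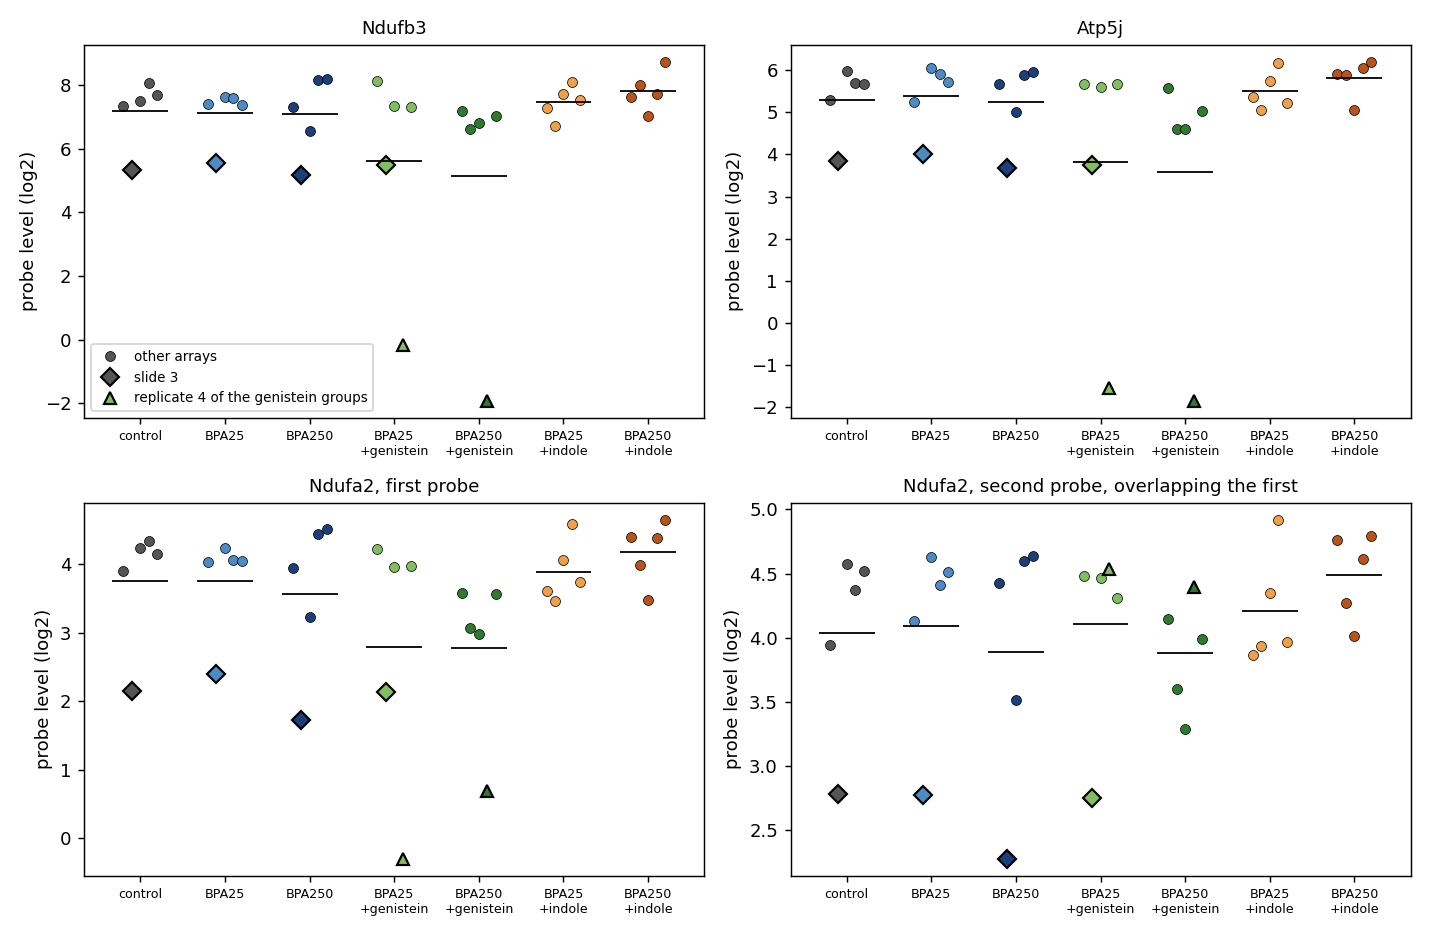
Level (log2) of Ndufb3, Atp5j and both Ndufa2 probes on each array, by group, with the group mean as a line, slide 3 as diamonds and replicate 4 of the genistein groups as triangles. On those 2 arrays Ndufb3, Atp5j and the first Ndufa2 probe lie over 1 log2 unit below the other 33, and the second Ndufa2 probe lies within their range.

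Some promoters of the members held sequence motifs that the name rule did not use, though most lacked each motif. RefSeq promoters of the GRCr8 assembly (250 bases before to 50 after the start) were found for 56 of 64 current symbols. The GABPA motif CCGGAAG was present on either strand in 16 of 56 (28.6%), beside 8.75% of all 33469 promoters. Those 33469 were not limited to genes kept here, whereas the members were kept genes with 1 promoter per symbol. The YY1 motif CCGCCAT was present in 15 (26.8% beside 4.8%), and the NRF1 motif GCGCATGCG in 4 (7.14% beside 1.52%), those of Ndufa11, Uqcrc1, Atp5g2 and Atp5o. These are factors known for control of respiratory chain genes. The muscle factor motif of MEF2, CTAAAAATA, was present in 1 member promoter (1.79% beside 0.511%), that of Cox6a2, and none of the 4 motifs was found in that of Cox8b. The 250 bases before the Cox6a2 start, at chr1:192219717-192219966 on the minus strand of GRCr8, are shown because Cox6a2 is the member that varied with muscle genes and holds this motif. Capitals mark the motif, which begins 50 bases before the start on the strand of the gene. A match describes the sequence and does not show a bound site.

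Cox6a2 upstream: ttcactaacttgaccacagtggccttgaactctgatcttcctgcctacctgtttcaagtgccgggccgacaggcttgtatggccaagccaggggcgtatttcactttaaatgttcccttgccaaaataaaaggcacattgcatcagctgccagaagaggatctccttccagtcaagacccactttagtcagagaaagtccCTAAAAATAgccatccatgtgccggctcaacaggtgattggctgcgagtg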

How the data were processed

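Gene expression was measured in 35 abdominal left mammary glands, with 150 ng RNA labelled with Cy3 for each Agilent whole rat genome array, per the labels. The deposited scans were extracted with Agilent Feature Extraction 9.5.3.1, per the submitters' processing notes. Per the file headers, the processed signal is an intensity from which the authors' software had subtracted local background, with detrending and with small positive surrogates for low values, and the mean and background signals are uncorrected intensities. Deposited flags (0 or 1) mark saturated spots, outliers and signals well above background. The authors also deposited values on a log2 scale, whose normalisation between arrays is not given in the sources used here and which served as an alternative.

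From these files, log2 of the processed intensity was centred on each array's 75th percentile, outlier spots were set to missing and spots of 1 probe were averaged. Group means were fitted per probe to the 35 arrays by limma (version 3.58.1, with R version 4.3.3 and data.table version 1.17.8). On simulated data with changes in BPA250+indole, the fit recovered 13 of 66 changes of log2 size 1, 55 of 67 of size 2 and 59 of 67 of size 3. It called 8 unchanged probes. The simulated noise was independent, without the differences between slides. It also held 200 planted changes, and the threshold set by the adjustment is stricter where fewer probes change. In the real fit, differences of -2.84 (Cox8h mRNA probe, BPA25+indole) and 2.89 (Ucp1, BPA250+indole) were not called. A lack of calls therefore says little about changes of log2 size 1 or less, and the recovery of sizes 2 and 3 need not hold for these arrays. Adjustment ran over the 18991 kept probes. Muscle correlations used 100000 permutations of arrays. Promoters were searched and figures drawn with Python 3.11.15 (numpy 2.4.6, matplotlib 3.10.9). All 81 members were matched to RefSeq (GRCr8): 48 by accession, 28 by symbol and 5 by an older symbol. In addition, 13 probes carry a current symbol of these families and fell outside the name rule. Members, lists and alternatives were chosen with earlier results of these data known.

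Genes were named if called, if among the 2 smallest p values per direction and comparison, if of extreme mean or SD in a complex, if an Sdh gene or tissue isoform, or if probes of 1 gene differed by over 1. Genes without a subunit role were taken from lists. Replicates are animals of different litters, as the labels describe, and the number of arrays limits the precision. The groups share replicate numbers. Deviations of same-numbered arrays from their group means correlated above 0.1 in all 5 pairs for BPA25 against control (0.135 to 0.896) and BPA250+genistein against BPA250 (0.232 to 0.659). In the other comparisons 4 of 5 pairs did. The pair at 0.896 lay on slide 3, and other same-numbered pairs also shared a slide. A pairing of animals and a shared slide therefore cannot be told apart, and no label gives a pairing. The main fit used none, and the replicate number served as a block in 1 alternative. Slide and scan day came from the file headers.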

Additional observations from a re-analysis of the deposited data

Results flagged for a closer look

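For each named member probe and for the member median, the distance of the highest or lowest array of a group to its nearest neighbour was divided by the range of the group (Dixon's ratio) and set against its 95% critical value. Of 146 combinations of a quantity and a group, 27 exceeded the critical value. Chance flags about 1 in 20 where combinations are independent, but these share arrays, so that rate is no yardstick here. Of the 27 flags, 15 fell on arrays of slide 3, each time as the lowest value of the group.

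On slide 3, the member median was flagged in control (ratio 0.757), BPA25 (0.887) and BPA25+genistein (0.807). The control array of that slide was flagged for Atp5b (0.741), the first Ndufa2 probe (0.796), Ndufa6 (0.714) and Ndufb3 (0.734). The BPA25 array was flagged for the first and second Ndufa2 probes (0.886 and 0.731), Ndufa5 (0.905, 4 arrays), Ndufb3 (0.871) and Ndufv1 (0.738). The BPA25+genistein array was flagged for Atp5b (0.802), the second Ndufa2 probe (0.871) and Uqcrb (0.826).

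Replicate 4 of the genistein groups was the lowest array for Atp5j in BPA25+genistein (0.734) and, in BPA250+genistein, for Atp5j (0.871), the first Ndufa2 probe (0.795) and Ndufb3 (0.936). These probes were tested because both arrays lay over 1 log2 unit below all others on them. Their flags on these arrays are therefore no separate support.

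Replicate 4 of BPA25+indole was the highest array of its group for the Cox8h mRNA probe (0.836), Atp5b (0.728), Ndufv1 (0.764) and Uqcrb (0.729). Replicate 3 of BPA250+indole, on slide 4, was the lowest for Atp5j (0.722), Cox7a2 (0.818) and Ndufa6 (0.763). Replicate 1 of control was the lowest for Cox7a2 (0.856, 4 arrays). The causes were not tested.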

How the results depend on the processing

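Apart from the left-out arrays named here, no other setting gave a called member. One Ndufs8 probe was called, in BPA250+genistein against BPA250 (1 call) and in the F test (1 call), when slide 3 and the 2 arrays that stood apart were left out together, an alternative chosen after seeing the data. How many of all kept probes were called with arrays left out is not given here. The cause was not tested for any value below.

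With 1 array left out at a time, calls of members ran from 0 to 1 for BPA25+indole against BPA25 and for the F test, the 1 call being Cox8h without replicate 4 of BPA25+indole. The median fold change ran from -0.26 to 0.44 for BPA25 against control, -0.47 to 0.30 for BPA250 against control, -0.53 to 0.27 for BPA25+genistein, -0.36 to 0.22 for BPA250+genistein, -0.24 to 0.25 for BPA25+indole and 0.27 to 0.86 for BPA250+indole, the diets each against the same BPA dose. Most of these extremes came from leaving out 1 array of slide 3. The percentage of members higher ran in the same order from 9.09 to 94.8, 2.60 to 92.2, 0 to 75.3, 9.09 to 85.7, 5.19 to 83.1 and 92.2 to 96.1.

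The median of the members in BPA250+indole against BPA250 (0.68 on all arrays) was 0.28 with the 75th percentile over detected probes, 0.22 in the authors' table, 0.22 with normexp and quantile, 0.24 with quantile, 0.23 and 0.33 with slide as a fixed or random block, and 0.27 without slide 3, with or without the 2 arrays that stood apart. The BPA250+indole level relative to all arrays was 0.25, 0.14, 0.15 and 0.18 under the first 4 of these, and that of BPA25+genistein was 0.029 in the authors' table. The median in BPA250+genistein was -0.26 and -0.21 with slide as a fixed or random block, -0.36 without slide 3 and -0.49 without the 2 arrays as well. In BPA25+indole it was -0.24 without slide 3 and -0.16 with slide fixed, and in BPA25+genistein 0.13 with scan day as a fixed block.

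The percentage of members higher in BPA250 against control (9.09 on all arrays) was 24.7 with detected probes, 54.5 in the authors' table, 32.5 with normexp, 35.1 with quantile, 84.4 with scan day, 79.2 with slide fixed, 67.5 with slide random and 29.9 without slide 3. For BPA25+genistein (22.1) it was 49.4 in the authors' table, 35.1 with normexp and with slide random, 71.4 with scan day, 57.1 with slide fixed, 33.8 without slide 3 and 5.19 without the 2 arrays. For BPA250+genistein (59.7) it was 39.0 with detected probes, 27.3 in the authors' table and with quantile, 29.9 with normexp, 18.2 and 22.1 with slide fixed or random, 9.09 without slide 3 and 31.2 without the 2 arrays. For BPA25+indole (70.1) it was 33.8 with detected probes, 28.6 in the authors' table, 22.1 with normexp, 20.8 with quantile, 14.3 with slide fixed or random and 5.19 without slide 3.

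Among named probes, Cox6a1 in BPA25 against control (-0.35) turned to 0.080 in the authors' table, 0.17 with normexp, 0.050 with outlier spots kept, 0.29 with quantile, 0.12 with slide fixed and 0.035 without slide 3. Cox7a2 (-0.36) turned to 0.057 with normexp, 0.041 with quantile, 0.046 with slide fixed and 0.035 without slide 3. The second EST probe of Cox8h in BPA250+indole turned to 0.33 without slide 3, Ndufc2 in BPA25+genistein to -0.058 without the 2 arrays and -0.035 without slide 3 as well, and Ndufs4 in BPA250 against control to -0.25 in the authors' table and -0.10 with normexp. With 1 array left out, these probes ran from -0.53 to 0.035 (Cox6a1), -0.52 to 0.035 (Cox7a2), -1.0025 to 0.33 (Cox8h), -0.084 to 0.78 (Ndufc2) and -0.17 to 0.29 (Ndufs4), Ndufa6 in BPA25+genistein from -0.10 to 0.66 and Ndufa7 in BPA250 against control from -0.0095 to 0.22. The muscle correlations of the Cox6a2 and Cox8h probes had r above 0 and an unadjusted permutation p under 0.05 under all 32 alternatives, for which no adjusted p was computed.

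With the replicate number as a block, the medians were 0.09, -0.10, -0.13, 0.06, 0.12 and 0.68 in the order above, with 0 calls, and no call changed. Low signal limits the dim probes, such as Ndufs4, above background on 18 of 35 arrays.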
